A study of Drosophila melanogaster with 3 samples.

Results

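The core genes of the cullin-RING ubiquitin ligases were described in a map of where the zinc finger protein CG14710 lay along the genome of Drosophila melanogaster embryos. The set held 10 of the 13944 protein-coding genes of the RefSeq annotation. They were the RING subunit genes Roc2, Roc1a and Roc1b, the cullin genes Cul1, Cul2, Cul3, Cul4 and Cul5, the adaptor gene SkpA and the modifier gene Nedd8. They were chosen by their role in the complex and because the Roc2 promoter was known from these data to hold one of the strongest peaks. Signals at the members are therefore given as a description, with no test. Of the 10, 7 had a reproducible peak summit at a promoter, against 42.6% of all protein-coding genes. Among the stronger 50% of the reproducible peaks it was 3 of 10, against 29%. The signal value at Roc2 was 47.7 times that at SkpA, the member with the next highest value.

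Cullin-RING ligases attach ubiquitin to proteins and so mark many of them for destruction by the proteasome. A cullin is the scaffold: its far end binds an adaptor and a substrate receptor, and its near end binds a small RING protein of the Roc family that brings in the ubiquitin-conjugating enzyme. The ligase is switched on when the ubiquitin-like protein Nedd8 is joined to the cullin, and in embryos these enzymes act on cell cycle regulators and signalling proteins.

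Chromatin immunoprecipitation followed by sequencing (ChIP-seq) was done on whole embryos aged 0 to 14 hours, males and females pooled, from 1 transgenic line that stably makes CG14710 tagged at the C-terminus with GFP, a green fluorescent protein. An anti-GFP antibody was used on chromatin sheared to 200 to 800 bp. There was 1 group of 3 biological replicates, named replicates 1, 2 and 3, and no second genotype or stage. Embryos that lack the tag were not analysed here, and the labels do not give the promoter that drives the tagged gene. Whole embryos mix many cell types, so strong occupancy in few cells and weak occupancy in many cannot be told apart.

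The authors' lists held 30000 peaks for each replicate and for the pooled data, and 9194 after their filter on the irreproducible discovery rate (IDR). Signal is the value the authors' peak caller gave each peak. Its scale is not stated, so it only orders and describes the peaks of 1 list at a time. A ratio of signals within a list is therefore not a ratio of occupancy. Replicates are set side by side by rank or percentile, where 100 is the strongest peak. Signals of IDR peaks ran from 263 to 85632 with a median of 546. A gene is called bound when an IDR summit lay within 500 bp of one of its transcription start sites (TSS), which held for 7 of the 10 members and for 5941 protein-coding genes (42.6%). A site missing from a list was not among its 30000 peaks, which does not show that it was unbound. Read depth is unknown, and no interval for counting error can be given.

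Roc2 encodes a RING protein known to pair with Cul5. The gene lies on 2R at 11652756 to 11679354 on the minus strand (dm6), and its transcripts share 1 TSS. The IDR peak there covered 11678551 to 11680189, a width of 1639 bp, with its summit 16 bp upstream of the TSS and a signal of 52684. It ranked 6 of 9194 peaks, and 99.8% of bound genes had a lower promoter signal. Its signal was 70.7 times the median of 745 over all bound genes. Replicates 1, 2 and 3 had signals of 19726, 15082 and 17888, ranks of 4, 6 and 8, and summits at -23, -15 and -25 bp. All 3 replicates thus placed Roc2 among their first 10 peaks, and the summits fell within 10 bp of each other.

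The mean percentile of Roc2 was 99.98 ± 0.0067 (SD, n = 3). The IDR peaks nearest to it by this measure were those at CG15435 (99.99, ranks 7, 3 and 5) and RpL27A just above, and at Opa1 (99.98, ranks 5, 7 and 7) and Uch (99.98, ranks 9, 8 and 6) just below. RpL27A encodes a ribosomal protein, Opa1 a mitochondrial fusion protein and Uch a ubiquitin hydrolase. The RpL27A summit had a signal of 766 and took its ranks from an interval it shares with CG15435. Inside the 26599 bp of Roc2 itself there was 1 IDR summit, 17663 bp downstream of the TSS, with a signal of 344. It ranked 7384, so the strong signal of this long gene was at its start.

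Across the members, SkpA had the next highest value after Roc2 in every replicate. Within each list, Roc2 had 60.0 times the signal of SkpA in replicate 1, 45.2 times in replicate 2 and 39.5 times in replicate 3. By mean percentile the order was Roc2 (99.98), SkpA (94.5), Cul1 (91.8), Cul4 (82.2), Cul2 (81.9), Nedd8 (78.8), Roc1a (78.1) and Cul3 (74.7). Roc2 stood 5.53 ± 1.92 percentile points above SkpA, and their ranges did not overlap. Every other pair of neighbours in this order overlapped. SkpA was above Cul1 in 3 of 3 replicates by 2.61 ± 1.28 points, and Cul1 above Cul4 in 3 of 3 by 9.62 ± 10.4. From Cul4 to Cul3 the neighbours differed by 0.27 to 3.45 points with SDs of 8.54 to 17.4, so their order was not resolved beyond the spread between replicates. Roc1b and Cul5 had no summit within 500 bp of a TSS in any of the 5 lists. In each replicate list 8 of the 10 members had a promoter summit, against 55.4%, 55.3% and 55% of protein-coding genes in replicates 1, 2 and 3.

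**Figure D1:**
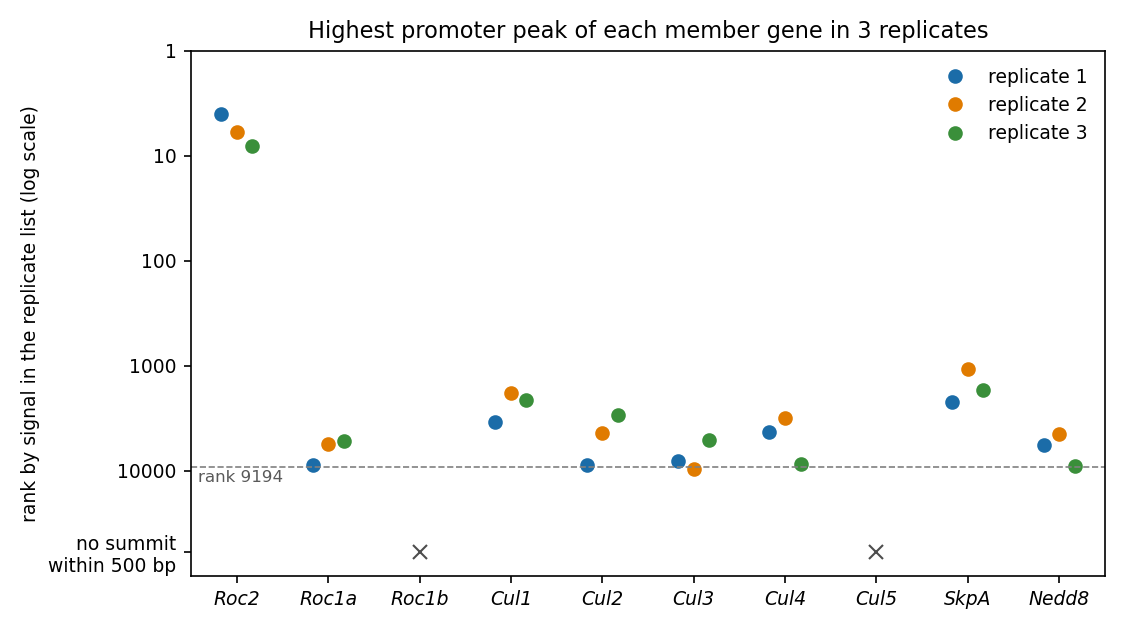
Rank by signal of the highest peak within 500 bp of a TSS of each member gene, on a log scale with the strongest at the top. Points are replicates 1, 2 and 3, crosses mark genes with no such summit, and the dashed line is rank 9194, the number of IDR peaks. Roc2 sits at ranks 4 to 8, and the other members with a summit lie between ranks 1078 and 9542.

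Roc1a encodes the RING protein of the complexes built on Cul1, and Roc1b a close relative that was linked to Cul3 in the fly. Roc1a lies on X at 647304 to 648597 on the plus strand (dm6), with 1 TSS. It had 2 IDR summits at its promoter. The higher, at 647062, lay 242 bp upstream of the TSS with a signal of 412 and a rank of 6253, and the nearer, at 647268, lay 36 bp upstream with a signal of 302 and a rank of 8250. Of all bound genes, 16.7% had a lower highest promoter signal than Roc1a. Its highest promoter peak had signals of 107, 121 and 196 in replicates 1, 2 and 3, with ranks of 8920, 5587 and 5178. Those peaks had summits at -331, -229 and -134 bp, a range of 197 bp. The median range was 46 bp over the 6656 protein-coding genes with a promoter summit in all replicate lists. Replicates 1 and 2 also had a nearer summit, at -87 and -30 bp, and replicate 3 had only 1. The range may therefore not compare calls of 1 site. Roc1b lies on 3L at 357981 to 358486 on the plus strand (dm6). Its nearest IDR summit was 3434 bp away with a signal of 1167, and lay 32 bp from the TSS of Cdc5. The RING genes thus held the strongest member, a weak one and one with no promoter peak.

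The 150 bases upstream of the Roc1a TSS, chrX:647154-647303 (dm6, plus strand, from the RefSeq genome), are shown because they hold the summit nearest to the gene. Capitals mark the 21 bases centred on that summit.
Roc1a: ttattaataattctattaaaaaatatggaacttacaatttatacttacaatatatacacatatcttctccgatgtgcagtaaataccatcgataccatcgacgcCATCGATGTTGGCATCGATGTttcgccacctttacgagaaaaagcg
Just downstream, at bases 2 to 10 with the TSS counted as 0, lay the letters GGTCACACT, the sequence known for the promoter factor M1BP. The 30 bases chrX:647296-647325 (dm6, plus strand) show it in capitals, 42 bp from the summit.
Roc1a site: aaaaagcggcGGTCACACTgcttgagcctc
Roc1a was the only member with this sequence in a promoter window, defined as 250 bases before a TSS and 50 from it on, searched on both strands. It was in such a window at 6.78% of all protein-coding genes and 14.3% of bound genes, and within 50 bp of 2.55% of IDR summits. A match is a description of the letters and was not tested as a binding site.

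Among the cullins that had no or weak promoter peaks, Cul2 and Cul5 form ligases with the elongin adaptors and Cul3 with receptors that carry a BTB domain. Cul2 lies on 2L at 21658735 to 21663698 on the plus strand (dm6). It had no IDR or pooled summit within 500 bp of its TSS, although each replicate list had one, with signals of 107, 149 and 311 and ranks of 8908, 4381 and 2964 in replicates 1, 2 and 3. These summits lay at -102, -102 and -61 bp, within 41 bp of each other. The mean percentile was 81.9 ± 10.3 (SD, n = 3), close to that of Cul4, a bound gene. Of the 5010 protein-coding genes whose highest promoter peak was among the strongest 9194 in every replicate, 22 had no IDR promoter summit and 6 (0.12%), Cul2 among them, had no pooled one either. Of the 6656 genes with a promoter summit in all replicate lists, 85.7% were bound. The nearest IDR summit to Cul2 lay 1189 bp upstream, with a signal of 552 and a rank of 4544, and was 79 bp from a TSS of lncRNA:CR43144.

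Cul3 lies on 2L at 15265245 to 15272024 on the minus strand (dm6) and has 3 TSS. Only the outermost, at 15272024, had summits, and the other two, at 15271628 and 15270324, had none in any list. The higher IDR summit lay 207 bp upstream with a signal of 385 and a rank of 6659, and 13.7% of bound genes had a lower value. The second, at -408 bp, had a signal of 264 and a rank of 9162 of 9194. Replicates 1, 2 and 3 had signals of 119, 69.0 and 197 and ranks of 8092, 9542 and 5156. Replicate 3 was highest, and replicate 2 placed the site outside its strongest 9194. In the IDR list Cul3 had the lowest promoter signal of the bound members, but it was above Roc1a in replicate 1 and above Nedd8, Cul4 and Roc1a in replicate 3.

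Cul5 lies on 3R at 29059272 to 29062975 on the minus strand (dm6), head to head with Bicra, which encodes a chromatin remodelling subunit and has a TSS at -65 bp from that of Cul5 and another at -853 bp. The nearest IDR summit lay 549 bp upstream of Cul5, just outside the promoter window, with a signal of 1158 and a rank of 1460. It was 304 bp from the outer Bicra TSS. A second, 759 bp upstream, had a signal of 482. In replicates 1, 2 and 3 the nearest summit had signals of 303, 289 and 575 at -540, -522 and -549 bp. With a window of 1000 bp Cul5 would count as bound. The outermost IDR summit inside the window among members was that of Cul3 at -408 bp, and the first outside was that of Cul5 at -549 bp.

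Cul2 and Cul3 both carry the letters TATCGATA, the sequence known for the promoter factor DREF, close to a TSS. They are shown with 30 bases each because the same letters recur in the promoter windows of 6 members, and capitals mark them. The Cul2 bases are chr2L:21658727-21658756 (plus strand) and span the TSS, with the sequence present at bases -3 to 4 and 10 to 17. The Cul3 bases are chr2L:15272044-15272073 (minus strand), with the sequence at -38 to -31, 173 bp from the nearest IDR summit (dm6, RefSeq genome).
Cul2 site: tcaaaTATCGATAgattaTATCGATAtcgt
Cul3 site: tggaaaagtacTATCGATAgctatcaccat
At Cul2 the first copy of the sequence lay wholly within 100 bp of the summit of replicate 3. In replicates 1 and 2, with summits at 21658633, that copy began at 21658732 and so lay only partly within this distance.

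Cul1 and Cul4 were the cullin genes with the highest promoter signals in the IDR list, while in replicate 3 both Cul2 and Cul3 were above Cul4. Cul1, the scaffold of the SCF complexes that hold SkpA and an F-box protein, lies on 2R at 7916856 to 7921579 on the plus strand (dm6). All 3 of its TSS, at 7916856, 7916954 and 7917178, had an IDR summit within 500 bp. Its IDR interval of 589 bp held 1 summit 126 bp upstream of the first TSS, with a signal of 884 and a rank of 2355, and another 22 bp upstream of the second TSS, with a signal of 340 and a rank of 7464. Replicates 1, 2 and 3 had signals of 251, 258 and 395 and ranks of 3406, 1838 and 2104. Of all bound genes, 61.1% had a lower value than Cul1. Its mean percentile was 91.8 ± 2.80 (SD, n = 3), a spread near the median SD of 3.02 over all genes with 3 values.

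Cul4 builds ligases with the adaptor pic, the fly DDB1, and lies on 2R at 8102260 to 8106318 on the minus strand (dm6). Its TSS at 8106314 and 8106318 share an IDR summit 18 bp upstream of the outer one, with a signal of 515 and a rank of 4905. Of all bound genes, 28.7% had a lower value. Replicates 1, 2 and 3 had signals of 212, 189 and 112 and ranks of 4268, 3142 and 8600, so replicate 3 was low here and high at Cul2 and Cul3. The summits of the replicates lay within 26 bp of each other, and the mean percentile was 82.2 ± 9.61 (SD, n = 3).

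The 4 bound members with the highest signal each shared their summit with a gene that points away from them. Roc2 shared its summit with Buffy, a Bcl-2 family gene whose TSS lay 138 bp away, with the summit at -122 bp from it. Cul1 shared its summit with CG12159 (TSS 378 bp away), Cul4 with udd, a gene of ribosomal DNA transcription (67 bp), and SkpA with the histone methyltransferase gene Hmt4-20 (81 bp). Roc1a, Cul3 and Nedd8 had no other protein-coding TSS within 500 bp of their highest summit. These 4 of 7 bound members (57.1%) stood beside 3469 of 5941 bound genes (58.4%), a similar share. Which gene of a pair a peak belongs to cannot be told from its position.

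**Figure D2:**
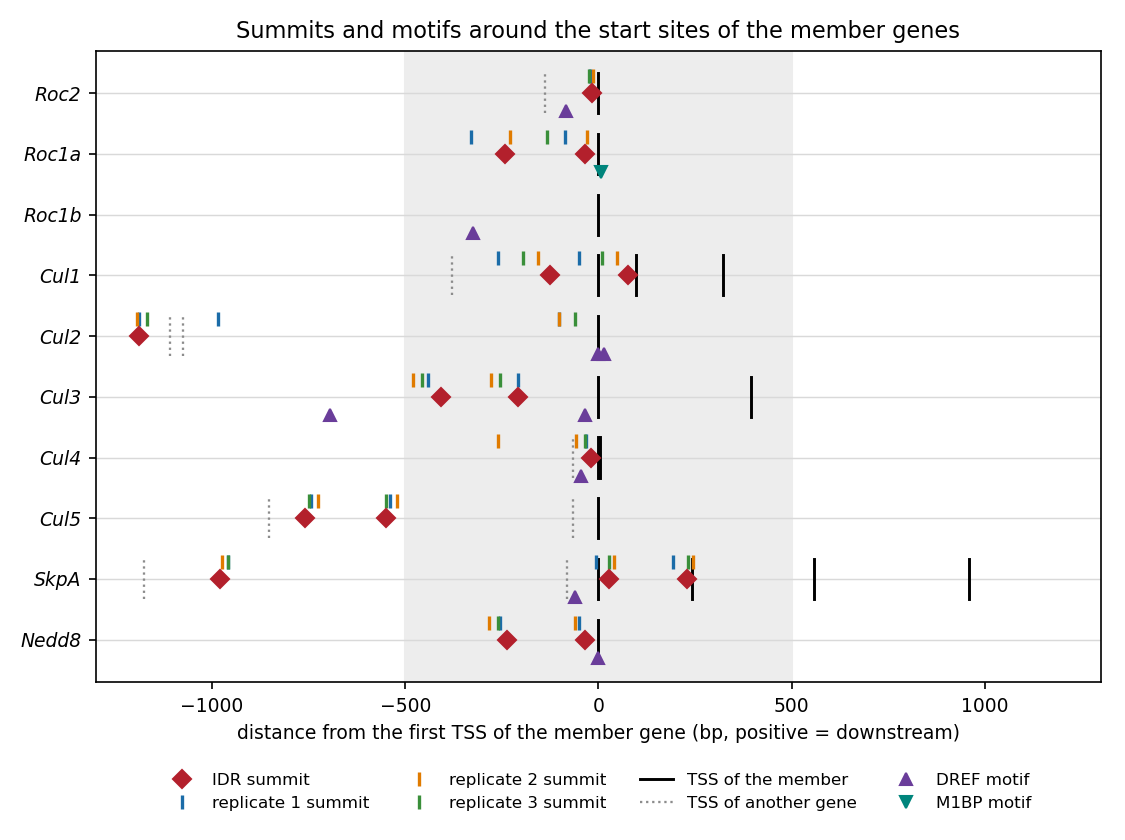
Positions of IDR summits (diamonds), replicate summits (coloured ticks), TSS of the member (solid lines) and of other genes (dotted lines), and matches to the DREF and M1BP sequences (triangles), as distance in bp from the first TSS of each member, positive downstream. The grey band is 500 bp on each side. Roc2 has 1 summit at -16 bp, the summits of Roc1a, Cul3 and Nedd8 are spread upstream, and those of Cul5 fall outside the band at -549 and -759 bp.

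SkpA encodes the fly Skp1 adaptor, which ties F-box proteins to Cul1. It lies on X at 656114 to 657899 on the plus strand (dm6) and has 4 TSS, of which those at 656114, 656356 and 656673 had an IDR summit within 500 bp and that at 657074 had none. The higher summit, at 656141, lay 27 bp downstream of the first TSS with a signal of 1104 and a rank of 1593. A second lay 14 bp upstream of the TSS at 656356, with a signal of 549 and a rank of 4565. Replicates 1, 2 and 3 had signals of 329, 334 and 453 and ranks of 2226, 1078 and 1692. The mean percentile was 94.5 ± 1.91 (SD, n = 3), and 73.2% of bound genes had a lower value. A stronger IDR summit, with a signal of 1774 and a rank of 655, lay 980 bp upstream of SkpA and 196 bp from the other TSS of Hmt4-20.
The 80 bases between the SkpA start and the near start of Hmt4-20, chrX:656034-656113 (dm6, plus strand, RefSeq genome), are shown with the DREF letters in capitals, 87 bp from the summit.
SkpA: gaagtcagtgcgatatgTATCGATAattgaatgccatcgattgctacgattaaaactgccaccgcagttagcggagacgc

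Nedd8 encodes the small protein that is joined to cullins to switch them on. It lies on 2L at 18951006 to 18951837 on the minus strand (dm6) with 1 TSS. The higher IDR summit lay 36 bp upstream with a signal of 397 and a rank of 6479, and the second lay at -236 bp with a signal of 281 and a rank of 8714. Replicates 1, 2 and 3 had signals of 168, 147 and 105 and ranks of 5644, 4458 and 9018. Replicate 3 was the lowest, and it held only the outer summit, at -261 bp, where replicates 1 and 2 had their highest at -51 and -60 bp. The mean percentile was 78.8 ± 7.89 (SD, n = 3), and 15.0% of bound genes had a lower value. The DREF letters lay across the TSS, at bases -4 to 3 and 36 bp from the summit. The 30 bases chr2L:18951823-18951852 (dm6, minus strand, RefSeq genome) show them in capitals.
Nedd8 site: atcgacagtacTATCGATAgttgccagtcg

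The DREF sequence TATCGATA, which reads the same on both strands, was the one fixed motif found at several members. It lay in a promoter window of 300 bases at Roc2, Cul2, Cul3, Cul4, Nedd8 and SkpA, which is 6 of the 10 members and 5 of the 7 bound ones, against 10.2% of all protein-coding genes and 19.5% of all bound genes. Among promoters counted singly the share was 7.998% of 19604. No test was made, since the members were chosen with their peaks known. At Roc2 the letters lay at -87 to -80 bp, 68 bp from the summit, and at Cul4 at -49 to -42 bp, 28 bp from the summit. Among the 7 bound members, the sequence lay within 50 bp of an IDR summit at Cul4 and Nedd8, and within 100 bp also at Roc2 and SkpA. It lay that close to 4.38% and 7.28% of all IDR summits. Those shares count summits rather than genes and include summits away from promoters. The E-box CACGTG lay in a promoter window of Nedd8 and of no other member, against 5.30% of genes and 6.50% of bound genes. The letters CAGGGCTG (ZIPIC), GGTATTTT (core promoter motif 6), GAGAGAG (GAF) and CAGGTAG (Zelda) were in no member promoter window, searched on both strands.

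The words of 8 letters most often found at the strongest peaks were looked for at the members as well. Within 50 bp of the summits of the 100 strongest IDR peaks, the words that stood out most against flanks 500 bp away were ACACACTG and ACACTGGC (18 peaks and 1 of 200 flank windows each), CACACTGG (15 and 0), AGTGTGAC and GGTCACAC (15 and 1 each). Several of them overlap each other and the M1BP sequence. None lay within 100 bp of the Roc2 summit, although the Roc2 peak is one of the 100. GGTCACAC lay 41 bp from the second Cul1 summit and 42 bp from the nearer Roc1a summit, and AGTGTGAC at Roc1a. ACACACTG lay near a start site of SkpA that had no summit within 500 bp. GGTCACAC was in a promoter window at 8.71% of all genes and 17.9% of bound genes. GC content within 100 bp of the highest summit was 37.8% at Roc2, 39.8% at SkpA, 36.3% at Cul1, 44.3% at Cul4, 35.3% at Nedd8, 28.9% at Roc1a and 25.4% at Cul3, against a median of 34.3% (quartiles 29.4% and 39.3%) over IDR summits.

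Set against all bound genes in the IDR list, SkpA (1104) and Cul1 (884) were above the median signal along with Roc2, and Cul4, Roc1a, Nedd8 and Cul3 were below it. The median of the highest promoter signal was 515 over the 7 bound members and 464 without Roc2, against 745 over the 5941 bound genes. Among the first 1000 IDR ranks there was 1 member, Roc2, which is 10% of the 10, against 1015 protein-coding genes (7.28%). In the 50% of IDR peaks with the higher signal, Roc2, SkpA and Cul1 remained bound, 3 of 10 members, against 29% of protein-coding genes. With the pooled list the count was 7 of 10, against 55.1%.

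**Figure D3:**
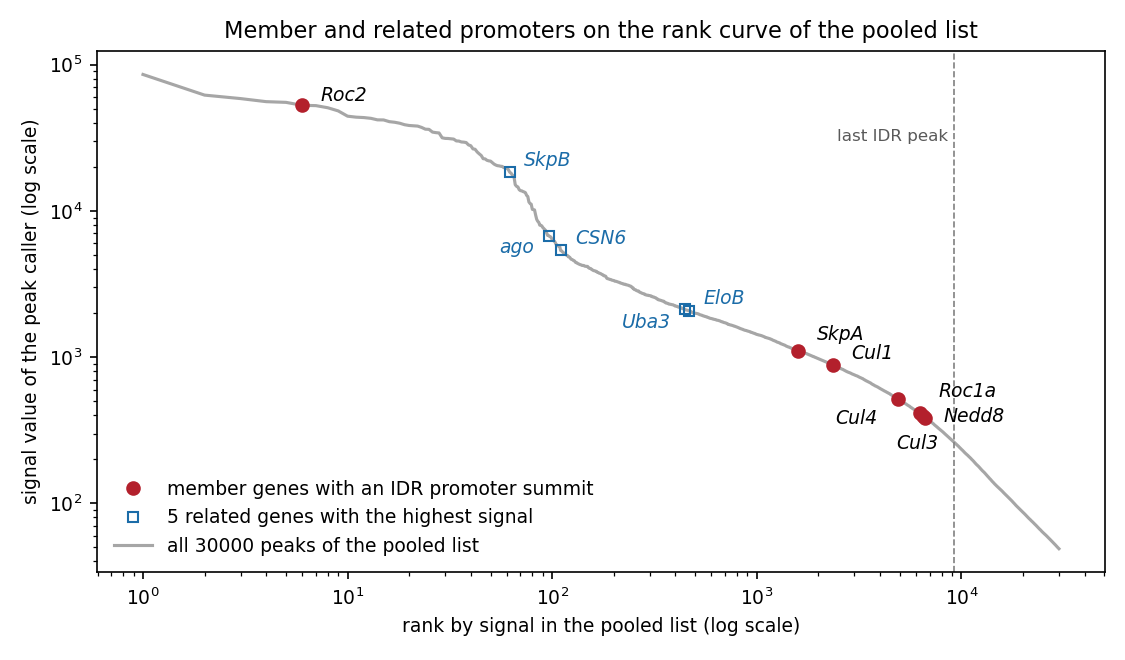
Signal against rank for the 30000 peaks of the pooled list, both on log scales, with the 7 bound members (filled circles) and the 5 related genes with the highest signal (open squares). The dashed line is the last of the 9194 IDR peaks. Roc2 lies at rank 6 on the upper shoulder of the curve, and the other bound members lie between ranks 1593 and 6659.

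Genes that work with the core, listed from general knowledge of the pathway, held peaks at a range of strengths. Of 59 listed genes 56 were matched to the annotation, and 47 of the 56 were bound, beside 7 of 10 members and 42.6% of all protein-coding genes. The median signal of those bound was 907, against 745 over all bound protein-coding genes. Among the first 1000 IDR ranks there were 11 of the related genes (19.6%), against 7.28% of all protein-coding genes. SkpA, with a signal of 1104, was far below its paralogue SkpB, which had the highest signal of the related genes at 18399, a rank of 62 and ranks of 63, 64 and 60 in replicates 1, 2 and 3. The F-box gene ago, whose product targets Cyclin E, had a signal of 6693 (rank 97), the COP9 signalosome subunit gene CSN6 5356 (rank 110), the Nedd8-activating enzyme gene Uba3 2123 (rank 445) and the elongin gene EloB 2078 (rank 464). The summits of SkpB, ago, Uba3 and EloB also lay within 500 bp of a TSS of another gene, so these peaks cannot be assigned to 1 gene. That of ago was 373 bp upstream of its own TSS. Replicate ranks were 106, 89 and 110 for ago, 114, 103 and 134 for CSN6, 528, 498 and 422 for Uba3, and 439, 403 and 572 for EloB. All 5 thus had close ranks in the 3 replicates. Within 100 bp of their summits, GGTCACAC lay at ago and CSN6, ACACTGGC and CACACTGG at SkpB, and the ZIPIC letters at EloB. Uba3 had none of the searched letters there. GGTCACAC was that close to 29% of the 100 strongest IDR summits and to 6.15% of all IDR summits. The 3 words were picked from the 100 strongest IDR peaks, which include those of SkpB and ago, so the matches are only described.

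By role, Nedd8 had a signal of 397, and every listed gene of the machinery that joins it to cullins was bound (6 of 6, median 1687, from 888 to 2123). Cul2 and Cul5 were not bound by the rule used here. Cul2 nevertheless had a promoter summit in each replicate list, and Cul5 an IDR summit with a signal of 1158 just outside the window, at -549 bp. The elongin genes of their adaptors were bound, with signals of 2078 at EloB and 1325 at EloC. Cul4 had 515, and its adaptor gene pic had 920. Cul3 had 385, and the genes of its receptors with a BTB domain were bound in 7 of 7 cases (median 1047). F-box receptors were bound in 9 of 12 cases (median 599), Skp1 paralogues in 3 of 5 (1135), receptors with a SOCS or VHL box in 5 of 6 (800) and receptors of Cul4 in 3 of 4 (440). Genes of cullin exchange and Nedd8 removal were bound in 9 of 11 cases (median 905). The distant relatives in the anaphase-promoting complex, the RING gene lmgA and the cullin-like gene mr, had 947 and 282. Over all protein-coding genes 42.6% were bound, with a median signal of 745. The 3 listed genes that were not matched belonged to the BTB receptors and the receptors of Cul4, and are not in these counts. No difference between these groups was tested.

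The 101 bases around the CSN6 summit, chr3R:22580653-22580753 (dm6, plus strand, RefSeq genome), are shown because they hold, in capitals, the word that also lies near the Roc1a start.
CSN6 summit: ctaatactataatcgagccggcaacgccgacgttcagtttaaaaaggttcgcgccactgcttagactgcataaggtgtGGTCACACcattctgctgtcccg

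**Figure D4:**
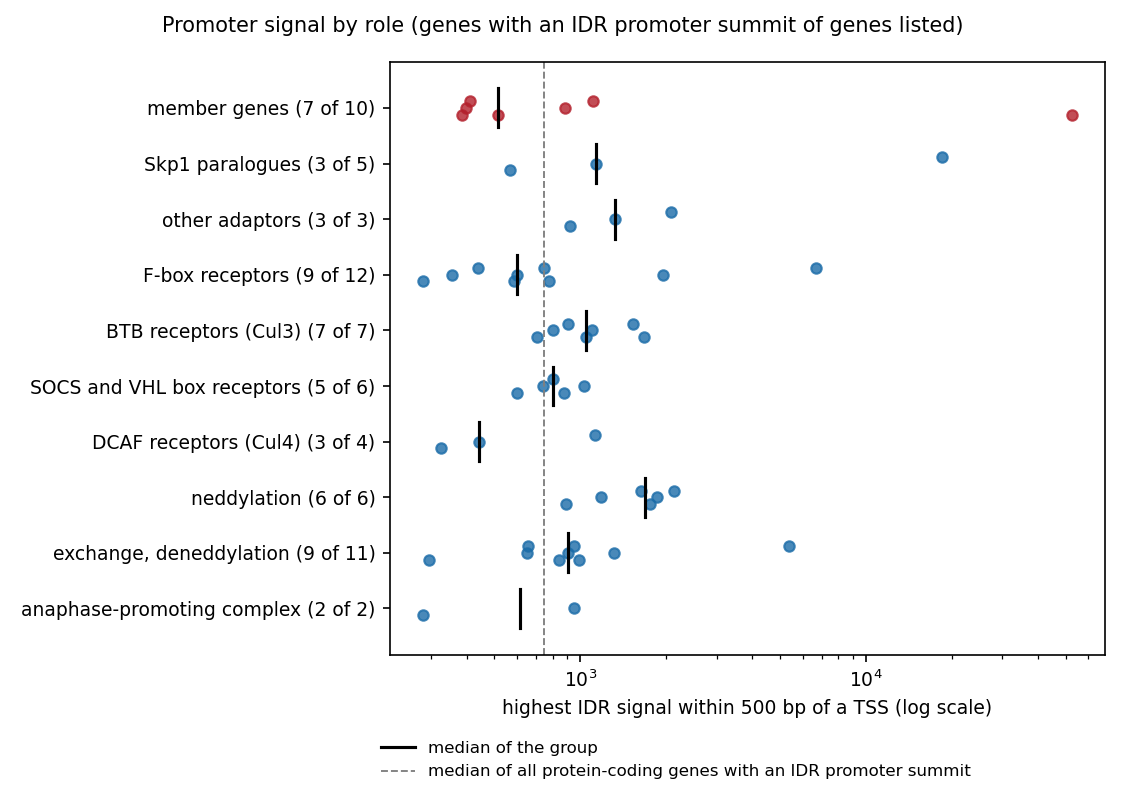
Highest IDR signal within 500 bp of a TSS, on a log scale, for each bound gene of the member set (red) and of the groups of related genes (blue). The number bound is given of the number of genes matched to the annotation. Black bars are group medians and the dashed line is the median of 745 over all bound protein-coding genes. The member median of 515 lies left of the dashed line, with Roc2 alone at the far right.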

How the data were processed

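Signal was deposited by the authors as column 7 of 5 narrowPeak lists, 1 per replicate, 1 pooled and 1 IDR list. Per the text files deposited with them, the replicate lists came from alignments to dm6 with 1 control file, and the IDR list from those 3 and the pooled list. The q value, on a -log10 scale in the deposited lists, was not used. The summit is an offset in bp from the start of each deposited interval. Aligner, caller, versions and the cutoff on IDR were not given in the sources used here. Depth is unknown. Nothing beyond the label of biological replicate says how the replicates were collected.

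Summits on the arms were set against RefSeq Release 6 (dm6; 17796 genes, 23623 TSS, 13944 protein-coding genes), with a window of 500 bp around each TSS. A gene took its highest summit in that window. Of 59 related genes, 1 was matched through a synonym and 3 were not matched. The members and lists were chosen with earlier results of these data known, so no test was made. The text names all members, the 5 related genes with the highest IDR signal, groups of 3 or fewer, the 2 peaks on each side of Roc2 by mean percentile, and genes that share a member's summit. Cdc5, Bicra and lncRNA:CR43144 were named after their positions were seen. Motifs were searched as exact letters on both strands, within 50 and 100 bp of summits and in 300-base promoter windows. Assignment and motif search were tested on simulated data. Python 3.11.15, numpy 2.4.6, pandas 2.3.3, pysam 0.24.0 and matplotlib 3.10.9 were used. Alternatives were windows of 250 and 1000 bp, the 50% of IDR peaks with the higher signal, the pooled list, any base of an interval in place of the summit, and each replicate left out.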

Additional observations from a re-analysis of the deposited data

How the results depend on the processing

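The number of bound members was 7 and of bound related genes 47. In the 50% of IDR peaks with the higher signal 3 members were bound, without Roc1a, Cul3, Cul4 and Nedd8, and 40 related genes, against 29% of all protein-coding genes. With each replicate left out the members ranged from 6 to 7 and the related genes from 41 to 43, against 36.0% to 38.4% of all genes. Cul3 was the member lost without replicate 1 or replicate 3. Both settings keep replicate 2, where Cul3 had a rank of 9542. The IDR list was made from all 3 replicates, so leaving 1 out does not remove it fully. A window of 250 bp gave 7 and 44 (37.3% of all genes), one of 1000 bp gave 8 and 48 (46.1%), the pooled list 7 and 51 (55.1%), and any base of an interval 8 and 47 (44.2%), with Cul5 the member added in the second and the last. The median over members of the mean percentile was 82.1, from 79.4 to 85.4 with a replicate left out. It was 86.7 with a window of 250 bp, where Cul3 and Nedd8 lacked a value in some replicate and 6 members were left. For single members, leaving out 1 of 3 replicates cannot move the mean by more than 1 SD of those values, so that measure says nothing there. Cul2, for one, ran from 77.9 without replicate 3 to 87.8 without replicate 1. Under the other settings only SkpA moved by more than 1 SD, to a mean percentile of 97.7 with a window of 1000 bp. That window takes in the peak nearer to Hmt4-20. No paired analysis was possible because there is only 1 group.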

Other observations

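The promoter peaks of 3 related genes are given here for how they differed between replicates, and they were picked out after their values were seen. The COP9 signalosome gene CSN7 had a promoter summit in replicate 3 alone, at rank 2092 of 30000. CSN1b, of the same complex, had ranks of 5020 and 2961 in replicates 1 and 3 and no promoter summit in replicate 2. The F-box gene Fbl6 had ranks of 3158, 3951 and 19940 in replicates 1, 2 and 3. The SD of its percentile was 31.6, against a median of 3.02 over all protein-coding genes with 3 values. The Fbl6 summits lay 497, 444 and 342 bp downstream of a TSS in replicates 1, 2 and 3, in a window that ends at 500 bp. Their range was 155 bp, against a median of 46 bp over genes with a promoter summit in all replicate lists. The Fbl6 summits were not tested as calls of 1 site. The cause was not tested.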
